A study of Mus musculus with 4 samples.

Results

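The genes described here were 9 members of the machinery by which macrophages take up dying cells, chosen by symbol from the 31053 genes of the deposited count tables. They were the receptors Mertk, Axl and Timd4, the bridging ligands Gas6, Pros1 and Mfge8, the scavenger receptor Lrp1, and the integrin chains Itgb5 and Itgav. Each symbol matched 1 row, and all 9 were among the 18865 genes found in at least 3 kept cells. The data were droplet single-cell transcriptomes of heart cells from CSF1R-EGFP+ mice aged 12 to 16 weeks, in which EGFP follows the Csf1r promoter. Cells were sorted as EGFP-positive and Ly6G-negative, so any cell with an active reporter could enter. The baseline group was 1 library pooled from 3 hearts of mice that had no surgery, not even a sham operation. The infarct group comprised 3 single-heart libraries, taken 7 days after left coronary artery ligation, with the remote zone cut away before digestion. Surgery and tissue region therefore cannot be told apart in the comparison of infarct with baseline, and animals within the baseline pool cannot be separated.

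Efferocytosis is the engulfment of apoptotic cells, which expose phosphatidylserine on their surface. TIM-4, the product of Timd4, binds phosphatidylserine directly, whereas the TAM receptor kinases bind it through soluble bridges, MerTK and Axl through Gas6, and MerTK also through protein S, the product of Pros1. Mfge8 bridges phosphatidylserine to the integrin pairs of the alpha-v chain (Itgav) with the beta-5 chain (Itgb5) or another beta chain, and Lrp1 takes up cells that display calreticulin. In the heart, Timd4 together with Lyve1 marks resident macrophages that maintain themselves locally, and MerTK is widely used to identify cardiac macrophages.

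The libraries held 10144 to 10804 cells and 71093963 to 97944428 unique molecular identifiers (UMIs), and any pair shared 26 to 34 cell barcodes. After filtering, 10238 baseline cells and 10396, 10782 and 10117 infarct cells remained, with median depths of 6398.5 UMIs at baseline and 8469.5 to 8556.5 UMIs in the infarcts. Cells were grouped by clustering without the 9 genes and named from marker lists as "-like" classes. Of the baseline cells, 5571 were resident-like and 329 reparative-like, whereas the infarct libraries held 47, 76 and 50 resident-like and 5409, 7468 and 6789 reparative-like cells. The summed level of 8 resident markers was 4968 CPM (UMI counts scaled to a common total) at baseline and 691 to 817 CPM in the infarcts, and that of 8 reparative markers was 878 CPM against 3324 to 3870 CPM. The classical monocyte-like cluster had Saa3 and Arg1 ahead of its monocyte markers among the leading genes. One cluster with a median of 1007 UMIs per cell, led by haemoglobin genes, remained unnamed. Expression is given below in CPM, computed from the counts of all cells in question added together, mitochondrial genes excepted.

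The genes lie on 6 chromosomes of GRCm38, and all 9 are annotated as protein coding. Mertk (ENSMUSG00000014361) spans chr2:128698956-128802894 on the plus strand, where the small gene Gm23172 overlaps it on the same strand. Axl (ENSMUSG00000002602) spans chr7:25757273-25788705 on the minus strand and Timd4 (ENSMUSG00000055546) chr11:46810800-46844332 on the plus strand. Of the bridges, Gas6 (ENSMUSG00000031451) lies at chr8:13465374-13494490 on the minus strand, Pros1 (ENSMUSG00000022912) at chr16:62854307-62929346 on the plus strand and Mfge8 (ENSMUSG00000030605) at chr7:79133768-79149060 on the minus strand. Lrp1 (ENSMUSG00000040249) lies at chr10:127538161-127621148 on the minus strand, Itgb5 (ENSMUSG00000022817) at chr16:33829665-33949338 on the plus strand and Itgav (ENSMUSG00000027087) at chr2:83724397-83806916 on the plus strand.

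The promoters of the 3 receptors are shown because Timd4 differed most between baseline and infarct, and Mertk and Axl divided the macrophage-like cells in different ways. Each is the 250 bases before the RefSeq start in GRCm38.p6, written 5′ to 3′ on the strand of the gene: chr2:128698665-128698914 for Mertk (plus strand), chr7:25788734-25788983 for Axl (minus strand) and chr11:46810549-46810798 for Timd4 (plus strand). No annotated exon overlapped them. Capitals mark the GC box GGGCGG, on either strand, in Mertk and Axl, and the Maf half-site TGCTGA, on either strand, in Timd4.
Mertk: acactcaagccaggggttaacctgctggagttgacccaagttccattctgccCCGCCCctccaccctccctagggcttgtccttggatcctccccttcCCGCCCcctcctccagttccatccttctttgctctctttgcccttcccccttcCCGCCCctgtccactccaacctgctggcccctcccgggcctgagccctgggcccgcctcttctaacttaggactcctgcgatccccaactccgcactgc
Axl: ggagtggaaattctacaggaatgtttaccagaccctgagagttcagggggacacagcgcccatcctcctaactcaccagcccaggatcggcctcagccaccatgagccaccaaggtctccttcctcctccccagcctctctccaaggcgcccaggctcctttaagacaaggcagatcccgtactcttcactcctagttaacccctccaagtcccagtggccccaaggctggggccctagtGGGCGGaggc
Timd4: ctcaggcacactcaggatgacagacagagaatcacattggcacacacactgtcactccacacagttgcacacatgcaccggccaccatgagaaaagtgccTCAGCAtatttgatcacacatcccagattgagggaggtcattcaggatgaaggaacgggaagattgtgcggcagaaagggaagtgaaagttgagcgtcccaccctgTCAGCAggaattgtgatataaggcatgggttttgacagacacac
The Mertk and Axl sequences held 63.6% and 60% G and C, and that of Timd4 held 50%. The GC box was present in 7 of the 9 members, all but Timd4 and Itgav, and in 32.7% of 32851 promoters of the same length. The Maf half-site was present in Timd4 alone among the members, and in 16.1% of all promoters. The interferon-stimulated response element was present in no member and in 2.98% of promoters, the gamma-activated site TTCNNNGAA in Pros1 and Lrp1 and in 7.02% of promoters, and the AP-1 site TGAGTCA in no member and in 4.46% of promoters. These motifs were chosen after the promoters had been seen, and a match of letters is a description only.

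The first comparison asked how each gene differed between infarct and baseline over all sorted cells. Timd4 was almost lost from the infarct libraries, Gas6 and Pros1 were lower, Itgb5 was higher, and the library-wide levels of Mertk, Axl and Lrp1 were close to baseline. The 1 baseline library gave no measure of the spread at baseline and no test was run, so a gene was counted as different where its infarct mean lay at least 2-fold from baseline with all 3 infarct libraries on that side. In this sense 1 member, Itgb5, was higher, against a background of 2.35% of 8249 genes, and 2 members, Timd4 and Gas6, were lower, against 7.21%.

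Timd4 measured 54.3 CPM at baseline (3674 UMIs, exact 95% interval 52.6 to 56.1, which covers counting error only) and 0.78, 0.99 and 3.06 CPM in infarcts 1, 2 and 3. The baseline library stood far above every infarct library, and the infarct mean of 1.61 ± 1.26 CPM (SD, n = 3) was 33.8-fold lower. Without infarct 3, which had the most Timd4 of the 3, its log2 ratio was -5.94 in place of -5.08. Gas6, the bridge shared by MerTK and Axl, measured 219 CPM at baseline and 73.8, 102 and 92.6 CPM in the infarcts. All 3 infarct values lay below baseline, with a 2.45-fold lower mean. Pros1 measured 80.0 CPM against 44.9, 33.9 and 45.2 CPM, and its log2 ratio of -0.95 fell just short of 2-fold. Mfge8 measured 19.1 CPM against 12.5, 13.6 and 14.6 CPM, again with every infarct library below baseline.

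Itgb5 showed the opposite order, with 110 CPM at baseline and 270, 280 and 258 CPM in the infarcts, a 2.45-fold higher mean. Itgav, its partner chain, measured 68.7 CPM against 95.8, 89.7 and 80.8 CPM, higher in 3 of 3 infarcts but by a log2 ratio of only 0.37. Mertk measured 61.9 CPM at baseline (60.0 to 63.8) and 57.9, 55.8 and 69.2 CPM in the infarcts, so that the infarct libraries lay on both sides of baseline. Axl (116 against 125, 105 and 119 CPM) and Lrp1 (280 against 320, 262 and 294 CPM) also lay on both sides. The median of all genes was -0.21 on this log2 scale. Under TMM scaling it was 0.07, and there Mertk, Axl and Lrp1 were higher in all 3 infarcts, with log2 ratios of 0.26, 0.29 and 0.34, so their direction depended on the scaling, while the other 6 members kept theirs.

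**Figure D1:**
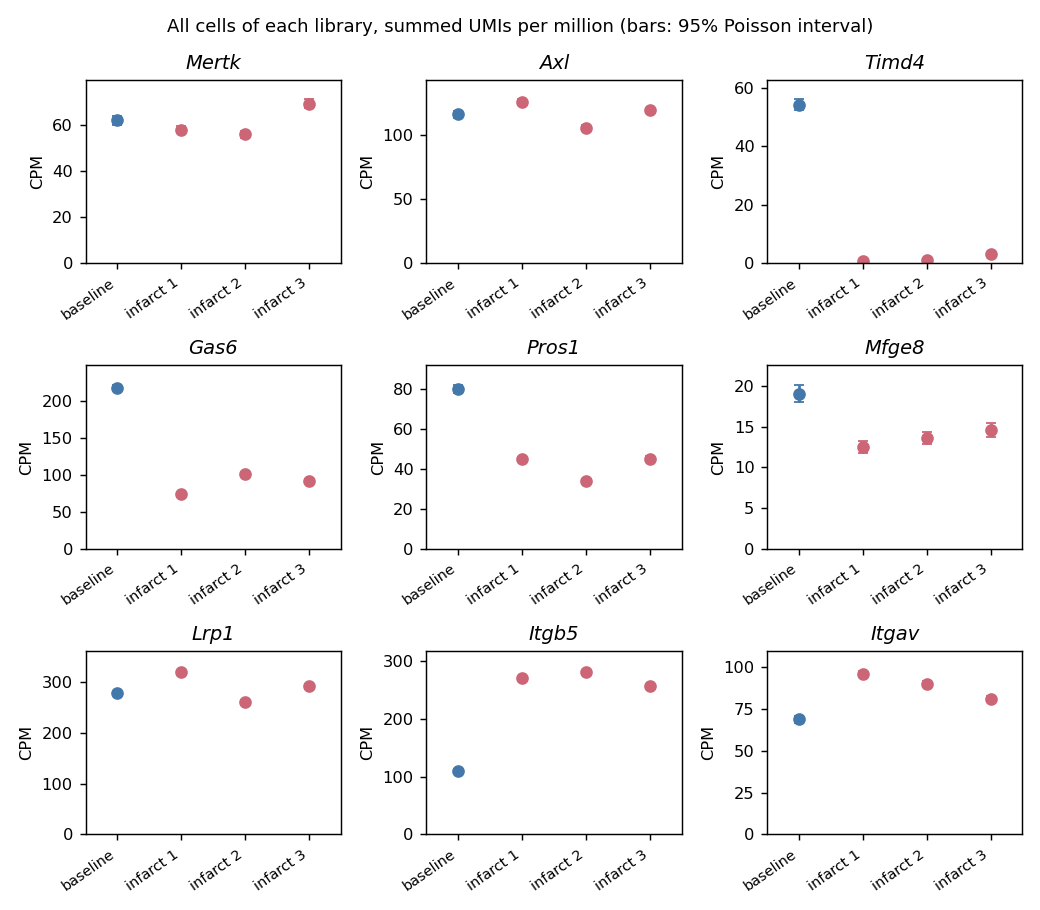
Level of each of the 9 genes in CPM over all cells of each library, with a panel per gene, a point per library and bars for the exact 95% Poisson interval. Timd4 is at 54.3 CPM at baseline and between 0.78 and 3.06 CPM in the infarcts, whereas the infarct points of Mertk lie on both sides of its baseline of 61.9 CPM.

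The share of cells with a UMI gave the same picture once each cell was thinned to 2000 UMIs, which left out 1247 baseline cells and 672 to 1044 cells per infarct library. Timd4 was found in 7.52% of baseline cells (95% binomial interval 6.98 to 8.08) and in 0.16%, 0.16% and 0.39% of infarct cells, and Gas6 in 26.1% against 11.03%, 15.5% and 14.4%. Itgb5 was found in 18.8% of baseline cells and in 38.0%, 39.7% and 38.6% of infarct cells. Mertk was found in 10.7% of baseline cells and in 10.2%, 10.1% and 12.7% of infarct cells, and Axl in 18.3% against 19.9%, 17.9% and 18.8%. Neither receptor separated the groups in this measure. Dendritic-like cells, which carried the least Mertk of the well-filled classes, gave a Mertk share of 0.71% at baseline and 0.32% to 1.72% in the infarcts, at median depths above those of all cells. B-cell-like cells had been intended as the reference but gave shares of 4.51% at baseline and 1.96% to 6.25% in the infarcts, and in the infarct libraries their cells also held 2288 to 2465 CPM of the reparative marker list. The part of macrophage RNA in these cells was not tested.

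The make-up of the libraries changed with infarction, so the infarct level was also computed as if every class had kept its baseline level and only the class shares of UMIs had changed. For Mertk the make-up alone gave a mean of 59.6 CPM and the measured mean was 61.0 ± 7.2 CPM (SD, n = 3), and for Axl these values were 123 and 116 CPM. For Timd4 the make-up alone gave 12.5 CPM, whereas 1.61 CPM was measured, below it in 3 of 3 infarcts. Interferon-response-like cells enter the Timd4 make-up value at their baseline level of 88.5 CPM, which rests on 86 cells (62 UMIs). For Gas6 the make-up alone gave 59.2 CPM, lower than the 89.5 CPM measured, with 3 of 3 infarcts above it. The measured level thus lay below the make-up value for Timd4 and above it for Gas6, although both genes were lower in infarct than at baseline.

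Itgb5 measured 1.77 times and Itgav 1.21 times the make-up value, above it in 3 of 3 infarcts. Lrp1, at 292 CPM against 394 CPM, and Mfge8, at 13.5 CPM against 20.5 CPM, lay below it in 3 of 3 infarcts. Pros1 measured 41.3 CPM against 45.4 CPM, with 1 of 3 infarcts above. This arithmetic has no test, and its value for reparative-like cells, the main class of the infarcts, rests on 329 baseline cells.

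**Figure D2:**
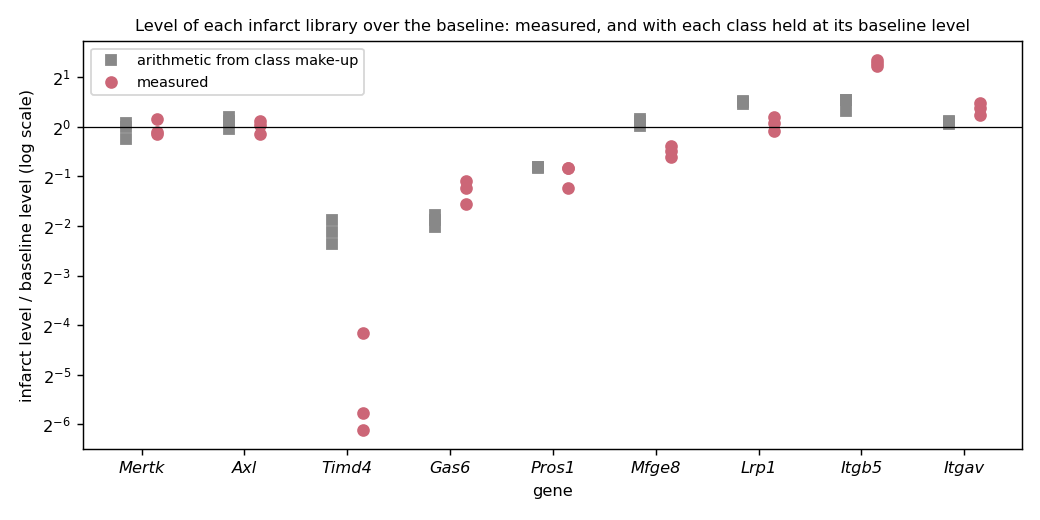
Level of each gene in the 3 infarct libraries divided by its baseline level (log axis, line at equality), as measured (circles) and as the change in class shares alone would give (squares). The circles of Timd4 (mean 1.61 CPM) lie below its squares (mean 12.5 CPM), those of Gas6 (mean 89.5 CPM) above its squares (mean 59.2 CPM), and those of Mertk overlap its squares.

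Inside resident-like cells, Timd4 was the member that differed most. It measured 83.2 CPM at baseline (5571 cells) and 13.6, 39.5 and 20.7 CPM in the infarcts (29 UMIs in all), a 3.39-fold lower mean. It alone of the 9 members met the size rule, on the lower side, where 3.34% of 8267 genes did, and no member met it on the higher side, against 0.895%. The summed resident marker level in these cells moved with it, from 7351 CPM at baseline to 3222, 6736 and 4203 CPM, with infarct 2 highest in both; its part in the result was not tested. At the finer clustering described below, 46.0% of the resident-like cells at baseline and 27.7%, 51.3% and 30.0% of those in the infarcts lay in a Lyve1-led cluster, and inside that cluster Timd4 was still lower in each infarct, at 158 CPM against 38.9, 70.9 and 55.9 CPM. Gas6 measured 329 CPM at baseline and 251, 483 and 263 CPM, and the infarct libraries lay on both sides, although with a gate on each cell all 3 lay below baseline (484 against 200.1, 447 and 284 CPM). Pros1 measured 104 CPM against 94.95, 83.4 and 50.2 CPM, and Itgb5 125 CPM against 183, 147 and 183 CPM. Mertk (84.9 against 94.95, 108 and 64.9 CPM) and Axl (150 against 170, 116 and 112 CPM) had no common direction.

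Inside reparative-like cells, Gas6 and Itgb5 were higher and Lrp1 and Mfge8 lower in the infarcts, in each case in 3 of 3 libraries. Gas6 measured 57.9 CPM at baseline (329 cells, 50.3 to 66.2) and 101, 120 and 107 CPM in the infarcts, a log2 ratio of 0.92. Itgb5 measured 207 CPM against 365, 326 and 311 CPM, and Itgav 80.8 CPM against 115, 96.0 and 89.7 CPM. Lrp1 measured 469 CPM against 330, 276 and 307 CPM, and Mfge8 23.7 CPM against 12.9, 14.3 and 15.7 CPM. Mertk (80.2 against 70.3, 64.1 and 75.7 CPM) and Axl (151 against 143, 111 and 125 CPM) were lower in 3 of 3, by log2 ratios of -0.20 and -0.26. None of the 8 members with enough signal reached 2-fold, against 2.76% of 7793 genes on the higher side and 4.14% on the lower side. Timd4 was below the level filter of 10 CPM, with 2.18 CPM at baseline (8 UMIs) and 0.09 to 0.22 CPM in the infarcts. With a gate on each cell in place of clusters, Gas6 measured 37.3 CPM at baseline and 137, 167 and 145 CPM in the infarcts, a log2 ratio of 2.00, and Mfge8 had one of -1.09, so both then passed 2-fold.

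The reparative-like class differed in make-up between the groups. When the clustering was aimed at 20 clusters, the cluster that kept the reparative name, led by Ctsk, Gpnmb and Spp1, held 51.7% of the baseline cells of the class and 21.1%, 19.0% and 19.2% of the infarct cells. In the infarcts a cluster led by Ms4a7 and Rapsn held 33.1%, 41.6% and 32.8%, and one led by Cxcl1 and Gdf15 held 34.7%, 29.6% and 34.3%, against 14.0% and 10.0% at baseline. Within the Ctsk-led cluster Lrp1 measured 544 CPM at baseline and 513, 415 and 471 CPM in the infarcts, and Mfge8 24.3 CPM against 19.6, 23.4 and 28.6 CPM, with log2 ratios of -0.22 and -0.02 against -0.62 and -0.73 in the whole class. Gas6 (61.1 against 90.9, 108 and 90.0 CPM) and Itgb5 (201 against 343, 290 and 292 CPM) were higher in each infarct there too. The fibroblast marker sum in reparative-like cells was 7.91 CPM at baseline and 51.1 to 53.4 CPM in the infarcts. Fibroblast-like cells themselves held 30880 to 51520 CPM of that sum and 205 to 368 CPM of Gas6 there, and the part of fibroblast RNA in the Gas6 level was not tested.

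Within the infarct libraries, each class was compared with all other cells of the same heart, on counts summed per library, in 3 hearts. Reparative-like cells were 52.0%, 69.3% and 67.1% of the infarct cells. For every other class the comparator was thus mostly reparative-like cells, and a lower call there is relative to them. Of 81 tests (9 genes in 9 classes), 14 passed an adjusted p of 0.01 in the higher and 32 in the lower direction by edgeR. Over all genes, 2.97% to 17.6% of those tested in a class passed in the higher and 2.93% to 19.8% in the lower direction. The classes had been drawn from other genes of the same cells, so these p-values are descriptions. The edgeR fit shares its estimate of spread between genes. A p-value therefore does not measure how steady a single gene was over the 3 hearts. Nor does the standard error (SE) given below, which was computed from the log2 fold change and its test statistic. Mertk and Gas6 were called higher in reparative-like and interferon-response-like cells, and Timd4, Gas6 and Pros1 in resident-like cells. Resident-like cells also held Mertk and Axl, at means of 89.1 and 133 CPM, against 70.0 and 126 CPM in reparative-like cells. In dendritic-like, proliferative-like and granulocyte-like cells 6 or 7 of the 9 members were called lower, against 19.8%, 11.9% and 9.05% of all genes.

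**Figure D3:**
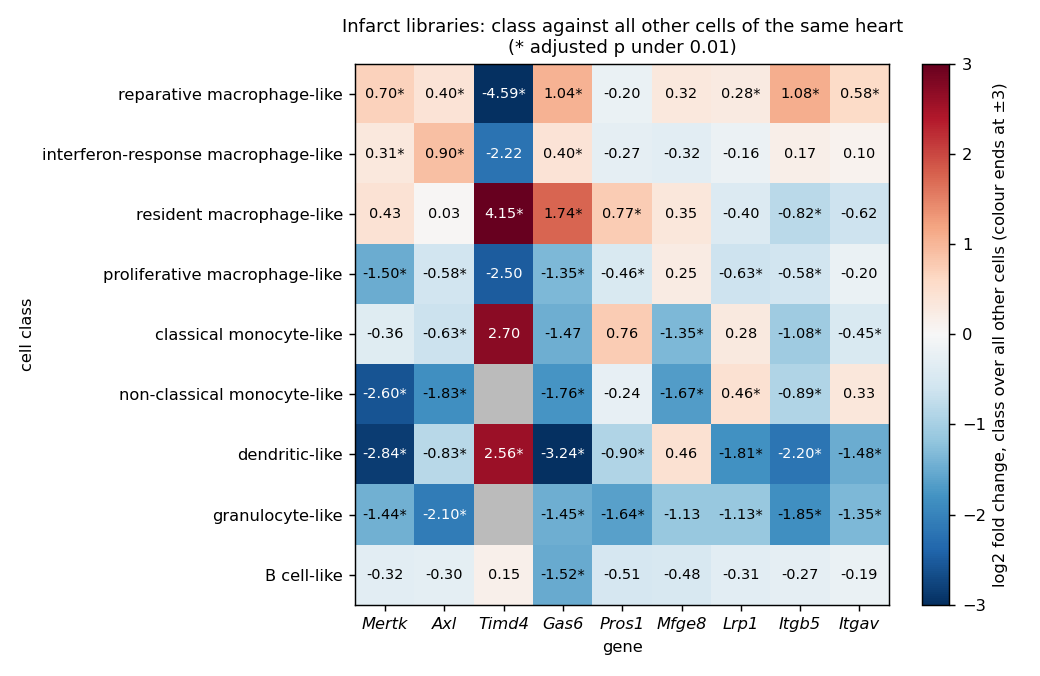
Log2 fold change of each gene (columns) between a cell class (rows) and all other infarct cells of the same heart (edgeR), with the value in each cell, an asterisk for an adjusted p under 0.01 and grey where the class held no UMI. Among the classes with a Timd4 UMI, its value is highest in resident-like cells (4.15) and lowest in reparative-like cells (-4.59). Most values of dendritic-like and granulocyte-like cells are below 0.

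In reparative-like cells 6 members were higher and 1 lower, against backgrounds of 11% and 15.8% of 13427 genes. Mertk measured 70.3, 64.1 and 75.7 CPM in these cells and 44.5, 38.9 and 56.1 CPM in the other cells, a log2 fold change of 0.70 ± 0.07 (SE, adjusted p = 0.000887, higher in 3 of 3 hearts). Gas6 rose by 1.04 ± 0.08 (adjusted p = 0.000547), with 101, 120 and 107 CPM against 44.4, 65.4 and 63.1 CPM. The receptor and its ligand were thus both higher in the same class. Itgb5 rose by 1.08 ± 0.07 (adjusted p = 0.000301) and Itgav by 0.58 ± 0.07 (adjusted p = 0.00185). Timd4 fell by 4.59 ± 0.48 (adjusted p = 0.0012), with 25 UMIs in the class and 398 outside it. Axl (0.40 ± 0.06, adjusted p = 0.003) and Lrp1 (0.28 ± 0.05, adjusted p = 0.00705) passed more narrowly. The Axl call reversed, to -0.52 and -0.44, when reparative-like cells were defined by finer clusters or by a gate on each cell. The Lrp1 call was lost with any 1 library left out (adjusted p between 0.0112 and 0.0718), that of Axl without infarct 1 or infarct 3 (0.011 and 0.0264) and that of Itgav without infarct 3 (0.0224). Where the Ctsk-led cluster alone kept the name, Mertk, Gas6, Itgb5 and Timd4 kept their direction with adjusted p of 0.0311, 0.0482, 0.013 and 0.0109.

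The finer clusters showed where Axl sat. Mean infarct Axl was 148 ± 17 CPM in the Ms4a7-led cluster, 129 ± 17 CPM in the Cxcl1-led cluster and 81.7 ± 16.6 CPM in the Ctsk-led cluster (SD, n = 3). The Ctsk-led cluster had the lowest Axl of the 3 clusters in every heart. Mertk did not follow this order, at 71.7 ± 7.1, 73.5 ± 5.2 and 66.5 ± 7.4 CPM, with overlapping ranges. Lrp1 ran the other way from Axl, at 513, 415 and 471 CPM in the Ctsk-led cluster against 218 to 257 CPM over the other two in the 3 hearts. The clusters were drawn from these cells and the differences between them were not tested.

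Interferon-response-like cells were the class with the most Axl. In them 3 members were higher and none lower, against 7.92% and 5.17% of 13226 genes. Axl measured 228, 156 and 183 CPM against 118, 98.9 and 115 CPM in other cells, a rise of 0.90 ± 0.07 on the log2 scale (adjusted p = 2.73e-06). Gas6 rose by 0.40 ± 0.05 (adjusted p = 0.000231). Mertk passed with 0.31 ± 0.07 (adjusted p = 0.00602), but its CPM was higher in 2 of 3 hearts only, and without infarct 2 or infarct 3 the adjusted p was 0.0373 or 0.0647. With a gate on each cell the adjusted p was 0.0236 for Mertk and 0.0564 for Gas6. The reparative marker sum in this class was 3045 to 3943 CPM, near that of the whole libraries.

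In resident-like cells 3 members were higher and 1 lower, against 2.97% and 4.54% of 12970 genes. Timd4 rose by 4.15 ± 0.53 (adjusted p = 6.83e-13), with 13.6, 39.5 and 20.7 CPM against 0.74, 0.80 and 2.99 CPM, on 29 UMIs in the class. Gas6 rose by 1.74 ± 0.14 (adjusted p = 1.52e-33), with 251, 483 and 263 CPM against 73.2, 100 and 92.0 CPM. Pros1 rose by 0.77 ± 0.20 (adjusted p = 0.00153), a call that was lost without infarct 1 or infarct 2, with adjusted p of 0.0634 and 0.354. Itgb5 fell by 0.82 ± 0.14 (adjusted p = 6.8e-07). Resident-like cells were thus the class with the most Gas6 and the most Timd4 in each infarct heart, among the 9 classes tested, on 47 to 76 cells per heart.

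Monocyte-like classes carried less of the integrin chain Itgb5, as did dendritic-like, granulocyte-like, proliferative-like and resident-like cells. In classical monocyte-like cells 4 members were lower and none higher, against 8.33% and 9.08% of 13221 genes. Itgb5 fell by 1.08 ± 0.08 (adjusted p = 0.000571), Mfge8 by 1.35 ± 0.14 (adjusted p = 0.00136) and Axl by 0.63 ± 0.10 (adjusted p = 0.00581), each lower in 3 of 3 hearts. Itgav fell by 0.45 ± 0.08 (adjusted p = 0.00748), and its call was lost with any 1 library left out, while that of Axl was lost without infarct 1 (adjusted p = 0.0211). Among uncalled members, Timd4 (2.70 ± 0.62, adjusted p = 0.0187), Pros1 (0.76 ± 0.17, adjusted p = 0.0166) and Lrp1 (0.28 ± 0.08, adjusted p = 0.0299) were higher in 3 of 3 hearts. Gas6 (-1.47 ± 0.34, adjusted p = 0.0186) was lower in 3 of 3 hearts. Mertk had no steady direction there, at 52.7, 29.5 and 72.0 CPM against 60.0, 58.6 and 68.6 CPM. A Saa3-led cluster of the finer clustering held 44.7%, 12.3% and 59.7% of these cells, in the same order of the 3 hearts as Mertk, and 2.1% of those at baseline. Infarct Mertk measured 96.2 to 103 CPM in that cluster, and 18.3 to 22.7 CPM in the finer clusters that kept the classical monocyte name. The part of that cluster in the Mertk level of the class was not tested.

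In non-classical monocyte-like cells 1 member was higher and 5 lower, against 10.8% and 11.8% of 12981 genes. Mertk fell by 2.60 ± 0.25 (adjusted p = 3.61e-23), with 7.11, 13.6 and 9.86 CPM, and Axl by 1.83 ± 0.17 (adjusted p = 9.79e-27). Gas6 and Itgb5 also fell, and Mfge8 fell by 1.67 ± 0.46 on 8 UMIs, a call that was lost with any 1 library left out. Lrp1 alone rose, by 0.46 ± 0.09 (adjusted p = 3.45e-06), with 424, 381 and 435 CPM against 319, 261 and 292 CPM, and without infarct 2 its adjusted p was 0.0157. Timd4 had no UMI in these cells in any infarct library.

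Proliferative-like cells carried 6 members at a lower level and none at a higher one, against 11.9% and 13.1% of 13365 genes. Mertk fell by 1.495 ± 0.10 (adjusted p = 5.32e-06), to 23.3, 20.6 and 26.1 CPM, and Gas6 by 1.35 ± 0.09 (adjusted p = 7.48e-06). Axl, Lrp1, Itgb5 and Pros1 fell by 0.58, 0.63, 0.58 and 0.46 on the log2 scale. Pros1 was close to the threshold (adjusted p = 0.00941). Its call was lost without infarct 1 or infarct 3, and that of Itgb5 without infarct 3 or with doublets removed (adjusted p = 0.0106). The Axl call was lost when cells were thinned to 2000 UMIs (-0.29, adjusted p = 0.117) and narrowly with no replicate block (adjusted p = 0.0101).

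Dendritic-like cells carried 7 members at a lower level and 1, Timd4, at a higher one, against 19.8% and 17.6% of 13447 genes. Gas6 fell by 3.24 ± 0.10 (adjusted p = 4.37e-10) and Mertk by 2.84 ± 0.16 (adjusted p = 4.17e-08), to 9.49, 10.9 and 5.26 CPM. Itgb5 fell by 2.20, Lrp1 by 1.81, Itgav by 1.48, Pros1 by 0.90 and Axl by 0.83 on the log2 scale. Timd4 rose by 2.56 ± 0.43 (adjusted p = 0.000379), with 2.99, 9.86 and 8.04 CPM against 0.63, 0.62 and 2.86 CPM. The resident marker sum in these cells was 168 to 226 CPM, below the 691 to 817 CPM of all infarct cells. The part of RNA from other cells, resident-like or not, in their Timd4 level was not tested. The Timd4 call was lost when cells were thinned to 2000 UMIs (1.33, adjusted p = 0.196), and that of Axl with finer clusters (-0.13, adjusted p = 0.188).

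Granulocyte-like cells carried 7 members at a lower level and none at a higher one, against 9.05% and 6.6% of 12964 genes, on 70 to 118 cells per heart. Axl fell by 2.10 ± 0.25 (adjusted p = 1.19e-15) and Itgb5 by 1.85 ± 0.19 (adjusted p = 6.95e-21). Mertk, Gas6, Pros1, Lrp1 and Itgav also fell, the Mertk call resting on infarct 3 (adjusted p = 0.0175 without it) and that of Pros1 on infarct 1 (adjusted p = 0.0155 without it). With a gate on each cell the calls of Mertk, Pros1, Lrp1 and Itgav were lost, Itgav at 0.07. In B-cell-like cells 1 member, Gas6, was lower and none higher, against 2.93% and 4.08% of 13035 genes. Gas6 fell by 1.52 ± 0.18 (adjusted p = 1.77e-14), to 31.6, 31.6 and 31.3 CPM.

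The few Timd4 UMIs of the infarcts, 69, 93 and 261 per library, were traced in the finer clusters. At baseline the Lyve1-led resident cluster held 83.2% of them, at 158 CPM in 2564 cells, and a Retnla-led cluster of 2955 cells held 5.14%, at 9.65 CPM. In the infarcts the Lyve1-led cluster kept 13, 39 and 15 cells, with 38.9, 70.9 and 55.9 CPM and 5.80%, 18.3% and 2.30% of the Timd4 UMIs. Most infarct Timd4 was thus elsewhere. An unnamed cluster led by Saa3, Arg1, Marco, Slpi and Cd5l (1381, 131 and 941 infarct cells) held 58.0%, 22.6% and 80.8% of it, at 3.87, 16.8 and 25.2 CPM. Dendritic-named clusters held 24.6%, 39.8% and 9.96%. The Saa3-led cluster had 22 baseline cells, with 160 CPM of Timd4. It also carried Mertk at 96.2, 98.3 and 103 CPM and Pros1 at 98.9, 99.1 and 117 CPM in the infarcts, above the reparative-named cluster in every heart for both genes.

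**Figure D4:**
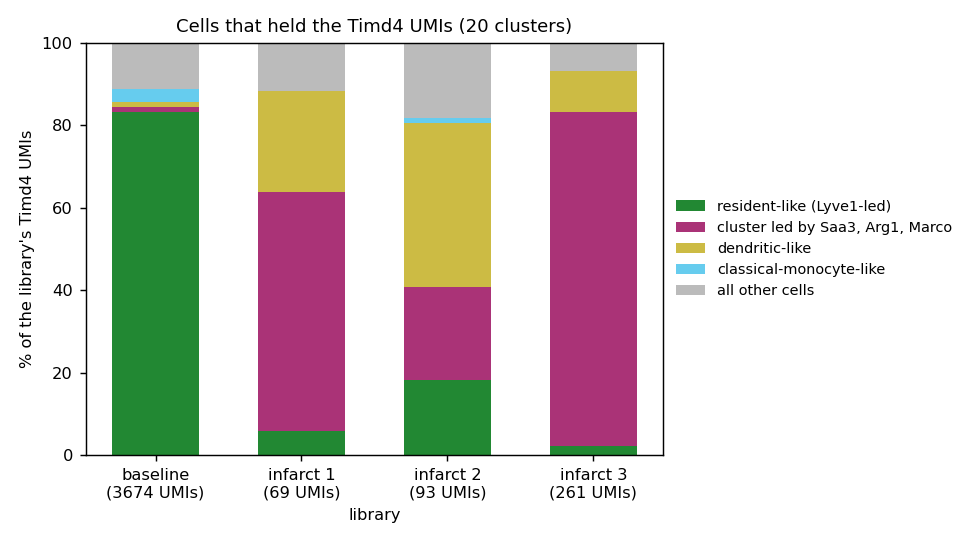
Stacked bars of the share (percent) of each library's Timd4 UMIs held by the finer clusters, for the baseline library (3674 UMIs) and the 3 infarct libraries (69, 93 and 261 UMIs). The Lyve1-led resident cluster holds 83.2% at baseline and 2.30% to 18.3% in the infarcts, where the Saa3-led cluster holds 22.6% to 80.8%.

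The baseline resident-like cells were also divided between these finer clusters in the other receptors. In the Lyve1-led cluster Axl measured 77.4 CPM and Gas6 555 CPM, whereas in the Retnla-led cluster Axl measured 222 CPM and Gas6 106 CPM. Mertk measured 105 and 64.2 CPM. In single baseline resident-like cells thinned to 4000 UMIs (4893 cells), a Gas6 UMI was found in 79.4% of 926 cells with a Timd4 UMI (95% interval 76.6 to 81.9) and in 48.1% of 3967 cells without one (46.5 to 49.6). Axl showed the reverse, in 22.1% of the cells with Timd4 (19.5 to 24.95) and in 44.0% of those without (42.4 to 45.6). Mertk was found in 30.6% and 25.3% of them, and Lyve1 in 85.0% and 29.7%. Among the same cells, Gas6 was found in 42.0% of cells with Axl and in 62.0% of cells without. All of these come from 1 library and have no replicate.

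The second set of tests compared infarct reparative-like cells with and without a UMI of a receptor, at 4000 UMIs per cell, in each of 3 hearts. A cell without a UMI can still express the gene. Cells with a Mertk UMI numbered 1060, 1360 and 1313, against 3714, 5304 and 4381 without. They held more Gas6, at 132, 171 and 152 CPM against 90.1, 102 and 96.4 CPM, a log2 difference of 0.63 ± 0.04 (adjusted p = 2.15e-38, higher in 3 of 3 hearts). They held less Axl, at 131, 104 and 110 CPM against 154, 113 and 129 CPM, a difference of -0.24 ± 0.04 (adjusted p = 1.33e-06). Itgb5 (0.10 ± 0.03, adjusted p = 0.00247) and Lrp1 (0.10 ± 0.03, adjusted p = 0.00924) differed slightly. In total, 3 members were higher and 1 lower of 7 tested, against 4.19% and 5.85% of 11046 genes. Without infarct 1 or infarct 2 only Gas6 and Axl passed, since Itgb5 had adjusted p of 0.042 and 0.103 and Lrp1 of 0.0496 and 0.0232, and without infarct 3 Lrp1 had 0.218. The Axl call was lost with cells thinned to 2000 UMIs (-0.12, adjusted p = 0.368) and with a gate on each cell (-0.03, adjusted p = 0.928), whereas Gas6 passed under both.

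Cells with an Axl UMI gave the mirror image for Gas6. They numbered 1886, 2071 and 1969, against 2888, 4593 and 3725 without, and held 81.9, 88.3 and 84.4 CPM of Gas6 against 111, 128 and 122 CPM, a difference of -0.49 ± 0.04 (adjusted p = 1.14e-30). Lrp1 was lower too, at 265, 222 and 259 CPM against 325, 277 and 302 CPM (-0.26 ± 0.03, adjusted p = 1.12e-17), a call lost with a gate on each cell (-0.12, adjusted p = 0.306). Thus 2 members were lower and none higher of 7 tested, against 3.12% and 4.05% of 11025 genes. Mertk was lower in 3 of 3 hearts but missed the threshold (-0.16 ± 0.05, adjusted p = 0.0109). Timd4 was too low to be tested in either split. The finer clusters differed in Axl, as given above, and their part in these differences was not tested.

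**Figure D5:**
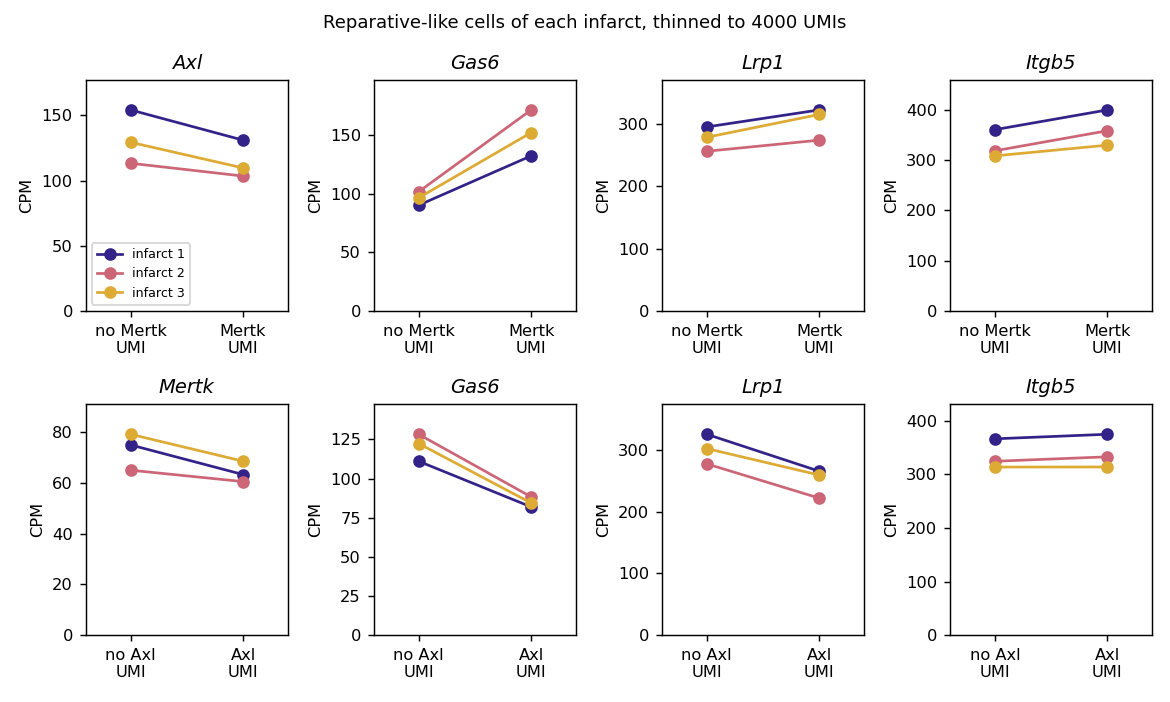
Level (CPM) of the other receptor, Gas6, Lrp1 and Itgb5 in infarct reparative-like cells without and with a Mertk UMI (upper row) or an Axl UMI (lower row), at 4000 UMIs per cell, with a line for each of the 3 hearts. All 3 lines of Gas6 rise with Mertk, to 132, 171 and 152 CPM, and fall with Axl, to 81.9, 88.3 and 84.4 CPM.

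Of 64 other genes of the efferocytosis pathway, 53 were measured well enough over all cells, and 3 were higher and 4 lower in infarct by the same size rule, against backgrounds of 2.35% and 7.21%. Cd36, a scavenger receptor, measured 349 CPM at baseline and 49.7 to 81.5 CPM in the infarcts, and Klf2, a transcription factor, 1146 CPM against 295 to 410 CPM. The phosphatidylserine receptor Cd300lf (9.90 against 30.4 to 38.1 CPM) and the lipid-sensing receptor Nr1h3 (6.75 against 11.5 to 18.2 CPM) were higher. The median log2 ratio of the list was -0.01, against -0.21 over all genes.

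In reparative-like cells 18 of 60 tested list genes were higher and 10 lower, against backgrounds of 11% and 15.8%, with a median log2 fold change of 0.08. Stab1, a receptor for phosphatidylserine, rose by 1.11 ± 0.10 (adjusted p = 0.000716), and Thbs1, the bridge thrombospondin-1, fell by 2.14 ± 0.13 (adjusted p = 0.000253). Socs1, a brake on cytokine signalling, fell by 1.199, and Havcr1 fell from a level under 1 CPM. Of the 7 other bridges and eat-me partners 4 were higher and 1 lower, of 16 engulfment and digestion genes 5 were higher and 2 lower, and of 11 other phosphatidylserine receptors and scavengers 1 was higher and 4 were lower. Proliferative-like cells had 1 list gene higher and 23 lower of 59, against 13.1% and 11.9% of all genes, with Abca1, a lipid transporter that acts after engulfment, lower by 1.26 on the log2 scale. In interferon-response-like cells 14 were higher and 7 lower of 59, against 7.92% and 5.17%, led by Socs1, which rose by 2.13.

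In the remaining classes, dendritic-like cells had 13 list genes higher and 37 lower of 60, against 17.6% and 19.8% of all genes. Granulocyte-like cells had 7 higher and 25 lower of 59, against 6.6% and 9.05%. Non-classical monocyte-like cells had 20 higher and 19 lower of 59, against 10.8% and 11.8%, with the complement genes C1qa, C1qb and C1qc each lower by more than 2 on the log2 scale. Classical monocyte-like cells had 9 in each direction of 59, against 9.08% higher and 8.33% lower, Thbs1 rising by 3.18 ± 0.27 (adjusted p = 0.00076). Resident-like cells had 5 higher and 10 lower of 59, against 2.97% and 4.54%, and B-cell-like cells 2 and 18 of 59, against 4.08% and 2.93%. Between infarct and baseline, 1 list gene of 50 in resident-like cells, Cd36, met the size rule, against 0.895% on the higher and 3.34% on the lower side. In reparative-like cells 7 of 53 were higher and 5 lower, against 2.76% and 4.14%.

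Cells with a Mertk UMI differed in 19 of 57 list genes, 12 higher and 7 lower, against 4.19% and 5.85% of all genes. Abca1 rose by 0.46 ± 0.03 (adjusted p = 2.05e-47), the transcription factor Maf by 0.43 ± 0.02 (adjusted p = 4.24e-52) and Stab1 by 0.37 ± 0.03 (adjusted p = 1.3e-34), and Gpr132, a lysolipid receptor, fell by 0.44. Cells with an Axl UMI had 7 higher and 9 lower of 57, against 4.05% and 3.12%. There Cd36 fell by 0.55, S1pr1 by 0.36, Lgals3 by 0.27 and Stab1 by 0.27 on the log2 scale. Stab1 thus moved up with Mertk and down with Axl, as Gas6 did.

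Over 42 units of a class in a library, the genes whose level followed Mertk most closely were Maf (Pearson r = 0.90), Adap2 (0.89), Selenop (0.89) and Stab1 (0.88), of 8066 genes. For Axl they were Sdc4 (0.85), Cdk6 (0.81), Sh3pxd2b (0.80), Rtn4 (0.79) and Lgals3bp (0.78). For Timd4 they were Lyve1 (0.87), Cd163 (0.86), Adam33 (0.84), Fxyd2 (0.84) and Vsig4 (0.81), and Lyve1 and Cd163 are themselves resident markers used here to name a class. No gene appeared in more than 1 of the 3 lists. Among the members, Mertk correlated with Axl at 0.62 and with Gas6 at 0.59. Units of 1 library share their depth and classes, so these coefficients are descriptions.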

How the data were processed

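Single-cell libraries of sorted Csf1r-EGFP+ Ly6G- heart cells were prepared with a droplet kit that counts transcript ends by UMI. The deposited files hold unnormalized UMI counts for each gene in each cell. The authors had produced them with Cell Ranger (version 3.1.0 per the file headers, 3.0.1 per the submitters' processing notes) on mm10, keeping the barcodes it called as cells. Libraries held 71093963 to 97944428 UMIs.

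The filter kept cells of 500 to 40000 UMIs with more than 200 genes. Clustering used 2000 variable genes without the 9 members, 20 components and 25 neighbours (scanpy 1.11.5, leidenalg 0.10.2, Python 3.11.15), at the resolution nearest to 12 clusters. A cluster was named where at least 3 listed markers were raised and at least 2 were among its 10 leading genes. The members, the marker and pathway lists and the tests were chosen with earlier results of these data known. All 9 members are named, and at most 4 list genes per comparison, from those of largest change past the threshold (some are not named).

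Counts were summed per infarct library over each pair of cell sets. The quasi-likelihood test of edgeR 4.0.16 (R 4.3.3) was used with the heart as a blocking term, TMM scaling and the filterByExpr filter, and a call required an adjusted p (Benjamini-Hochberg, over every gene in the fit) under 0.01. The pairing comes from the design, since the 2 sums compared were made from 1 heart, and deviations within pairs correlated at 0.156 to 0.828. A class needed 20 cells in every infarct library to be tested. Intervals (scipy 1.17.1) cover counting error only. The tests were checked on simulated data. In the resident-like comparison, planted log2 changes of 1 and -1 were recovered for 36% and 18% of genes. In the reparative-like comparison these values were 100% and 90%. The changes were planted only in genes above a set mean count, with a spread that was set and not estimated from these data. An uncalled member is thus not shown to be unchanged, least of all in resident-like cells. Promoters came from RefSeq, with all 9 members matched.

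Doublets were kept. Scrublet's own threshold marked 1.97% of cells at baseline and at most 0.00988% in an infarct library, so in an alternative the highest-scoring 8.1% to 8.63% per library were removed. Other alternatives were DESeq2 1.42.0 (size factors, Wald test), no count filter, no block, omission of single infarct libraries, a comparator of macrophages and monocytes, thinning, at least 1000 UMIs with at most 10% mitochondrial UMIs, 20 clusters, and a gate on each cell by marker score, where 5739 cells lay near the cut and 28.4% stayed unclassed. The finer clusters described by their leading genes Ctsk, Ms4a7, Cxcl1, Saa3, Retnla and Lyve1 were singled out after their values were seen. One of the genes most correlated with Mertk is not reported here.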

Additional observations from a re-analysis of the deposited data

Results flagged for a closer look

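The members below lay on one side of baseline in all 3 infarct libraries of a class and on the opposite side in all 3 libraries of another class. Values are log2 ratios of the infarct mean over the 1 baseline library, and the difference between classes was not tested. The infarct mean lay inside the 95% counting interval of the baseline value for Mertk in B-cell-like cells (22 baseline UMIs), Mfge8 in dendritic-like cells (44) and Lrp1 in proliferative-like cells (483), and the dendritic-like value is the only one of Mfge8 above baseline in this list. Mertk was higher in B-cell-like (0.556) and classical monocyte-like cells (2.06) and lower in non-classical monocyte-like (-0.625), proliferative-like (-0.526) and reparative-like cells (-0.196). Axl was higher in B-cell-like (0.557) and classical monocyte-like cells (0.804) and lower in reparative-like cells (-0.256).

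Gas6 was higher in reparative-like cells (0.92) and lower in B-cell-like (-1.49), dendritic-like (-1.62), non-classical monocyte-like (-1.13) and proliferative-like cells (-1.84). Mfge8 was higher in dendritic-like cells (0.378) and lower in classical monocyte-like (-0.773), non-classical monocyte-like (-0.783), proliferative-like (-0.444) and reparative-like cells (-0.733). Lrp1 was higher in B-cell-like cells (1.23) and lower in dendritic-like (-0.54), proliferative-like (-0.122) and reparative-like cells (-0.623). Itgav was higher in proliferative-like (0.81) and reparative-like cells (0.312) and lower in non-classical monocyte-like cells (-0.331).

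Beside the B-cell-like values stands the reparative marker sum of those cells, 274 CPM at baseline and 2288 to 2465 CPM in the infarcts, and beside the classical monocyte-like values the Saa3-led cluster, 2.1% of that class at baseline and 12.3% to 59.7% in the infarcts. Beside the lower Gas6 values stands baseline Timd4 in B-cell-like, dendritic-like, non-classical monocyte-like and proliferative-like cells, at 17.0, 16.7, 12.4 and 19.25 CPM. Its infarct means there were 1.49, 6.96, 0 and 0.34 CPM. Resident-like cells held 83.2 CPM of Timd4 and 329 CPM of Gas6 at baseline. The part of RNA from other cells and of the Saa3-led cluster in these values was not tested.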

How the results depend on the processing

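Of 81 tests of members by class, 46 passed in the main analysis. The number was 34 with no replicate block, where 12 of the 46 calls were lost and none gained, and 41 to 53 under the other settings over the classes available, and it ranged from 39 to 47 with 1 infarct library left out. Directions of called members were kept under every setting but for Axl in reparative-like cells (-0.52 with 20 clusters and -0.44 with the gate), Itgav in granulocyte-like cells (0.065 with the gate) and Lrp1 in the Mertk comparison (-0.066 with the gate). For the Mertk comparison, 4 members passed in the main analysis, 2 with the DESeq2 Wald test, with cells thinned to 2000 UMIs and with no count filter, 1 with the gate and with no replicate block, and 2 to 3 with 1 library left out. For the Axl comparison 2 passed, 1 with the gate and with no replicate block, and 2 to 3 with 1 library left out. The replicate block thus mattered for both comparisons. Between infarct and baseline 3 members met the size rule over all cells under every setting tried, and 3 to 4 with 1 library left out, Pros1 being the fourth without infarct 1 or infarct 3. Inside resident-like and reparative-like cells, 2 values lay at least 2-fold from baseline when Timd4 in reparative-like cells was counted, 4 with the gate and 2 in each case with 1 library left out. Depth limits the Timd4 results: the infarct libraries held 423 Timd4 UMIs in all, and the 29 in resident-like cells came from 173 cells. The causes of these changes were not tested.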
